A study of Rattus norvegicus with 11 samples.

Results

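The immediate early AP-1 and Egr genes examined here were Fos, Fosb, Fosl2, Jun, Junb, Jund, Atf3, Egr1, Egr2 and Ier2, 10 of the 32623 genes in the deposited expression table, and each was found by its gene symbol. Their levels were followed in white blood cells (WBCs) of 11 blood samples. All rats were male Wistar rats of 7 weeks, an age that the sources do not tie to a day. In 4 rats collagen-induced arthritis (CIA) was provoked with type II collagen in incomplete Freund's adjuvant (IFA-CII), with a boost on day 7. Each of these 4 rats gave a Nampt++ sample on about day 8 and a Nampt+ sample on about day 14, the authors having used their own PCR of Nampt to decide the status. A further 3 healthy rats without CIA gave the Normal samples, 1 each. Status and day thus change together and cannot be told apart, and the day on which the healthy rats were bled was not given in the sources used here. Red blood cells were lysed before extraction, although the deposited extraction text speaks of retinas. The leukocyte markers pointed to blood, since 5 of 5 had reads in every sample with a summed level of 1413 to 2828 FPKM (a gene's fragments per length of transcript and per size of library), while the 10 retina markers summed to at most 1.93 FPKM.

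AP-1 is a dimer of Fos and Jun proteins that binds DNA through a basic leucine zipper. Immediate early genes are switched on without new protein synthesis when MAP kinases act on factors that already sit at their promoters, such as serum response factor and CREB. Their mRNAs decay quickly, and in leukocytes they are known as early markers of stimulation through Toll-like receptors, cytokine receptors and antigen receptors.

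Promoters of 7 of the 10 genes were found among the RefSeq sequences of the GRCr8 assembly, each from 250 bases before to 50 bases after the start of the gene. Those of Egr1 and Fosb are shown because these genes gave the changes described below, that of Egr2 for comparison with Egr1, and those of Junb and Ier2 because these genes varied together. They lie at chr18:26736828-26737127 on the plus strand for Egr1, at chr20:21054392-21054691 on the minus strand for Egr2, at chr1:88089135-88089434 on the minus strand for Fosb, and on the plus strand at chr19:40080876-40081175 for Junb and chr19:40399123-40399422 for Ier2. Capitals mark matches, on either strand, to the CArG box bound by serum response factor, the AP-1 site TGANTCA, the cyclic AMP response element TGACGTCA, the Egr site GCGTGGGCG and the TATA box TATAAA, and none of these matches overlapped another.
Egr1: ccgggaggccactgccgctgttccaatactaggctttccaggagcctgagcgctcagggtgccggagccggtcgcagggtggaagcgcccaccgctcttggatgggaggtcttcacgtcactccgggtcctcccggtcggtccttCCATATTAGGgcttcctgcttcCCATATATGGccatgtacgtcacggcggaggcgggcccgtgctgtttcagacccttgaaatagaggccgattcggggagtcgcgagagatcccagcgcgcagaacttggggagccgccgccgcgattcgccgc
Egr2: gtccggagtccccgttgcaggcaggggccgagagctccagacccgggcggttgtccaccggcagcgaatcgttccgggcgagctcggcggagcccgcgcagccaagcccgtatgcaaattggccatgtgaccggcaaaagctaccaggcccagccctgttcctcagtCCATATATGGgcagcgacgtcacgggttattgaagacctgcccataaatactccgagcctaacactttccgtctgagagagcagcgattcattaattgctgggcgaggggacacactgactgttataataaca
Fosb: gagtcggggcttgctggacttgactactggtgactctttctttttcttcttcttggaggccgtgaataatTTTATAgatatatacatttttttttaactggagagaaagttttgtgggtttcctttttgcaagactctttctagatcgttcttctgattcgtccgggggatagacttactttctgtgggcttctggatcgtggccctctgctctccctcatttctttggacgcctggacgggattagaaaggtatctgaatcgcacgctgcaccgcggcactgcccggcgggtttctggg
Junb: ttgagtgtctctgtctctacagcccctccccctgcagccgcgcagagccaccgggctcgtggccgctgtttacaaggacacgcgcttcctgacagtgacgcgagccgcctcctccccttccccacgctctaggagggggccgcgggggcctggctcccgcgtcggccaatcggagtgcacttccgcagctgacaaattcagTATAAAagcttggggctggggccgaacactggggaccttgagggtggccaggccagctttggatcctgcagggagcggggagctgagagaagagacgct
Ier2: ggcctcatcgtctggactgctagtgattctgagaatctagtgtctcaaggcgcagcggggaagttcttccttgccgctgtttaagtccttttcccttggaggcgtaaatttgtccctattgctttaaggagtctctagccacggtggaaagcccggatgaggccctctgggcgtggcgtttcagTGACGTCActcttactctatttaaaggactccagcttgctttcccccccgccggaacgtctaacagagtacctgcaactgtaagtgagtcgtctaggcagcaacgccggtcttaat

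Egr1 held 2 CArG boxes, at positions -105 to -96 and -83 to -74 from the start, and Egr2 held 1, at positions -83 to -74. A CArG box was present in 1.64% of the 33469 promoters of this length. Ier2 held 1 TGACGTCA, at positions -66 to -59, as did Jund, whose promoter is not shown, against 1.83% of all promoters. Fosb and Junb each held 1 TATAAA, present in 14.2% of all promoters, and no other motif of those searched. That of Junb lay at positions -49 to -44, and that of Fosb on the opposite strand at positions -180 to -175, farther from the start. The AP-1 site TGANTCA, found in 7.33% of promoters, was in none of the 7, and the Egr site, found in 0.544%, was in that of Jund alone. A match describes the letters in this window only.

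All 10 genes passed the filter for testing, a mean of at least 1 FPKM, and no gene of the table overlapped them. FPKM corrects for length, so levels may be set side by side. Junb was the most abundant with a mean of 1046 FPKM over the 11 samples, above 99.2% of the 11242 genes with a mean of at least 1 FPKM. Jund followed at 465 FPKM, Ier2 at 263, Egr1 at 222, Fos at 140.2, Jun at 96.1, Fosb at 82.0, Fosl2 at 37.0, Atf3 at 17.5 and Egr2 at 3.13. The steps from Junb to Jund, Jund to Ier2, Fos to Jun and Atf3 to Egr2 held in 11 of 11 samples. Egr1 exceeded Fos in 7 of 11 samples and Ier2 exceeded Egr1 in 9 of 11, so the order of these neighbours was not fixed. The place of Fosl2 is uncertain, since counts and FPKM together imply a listed transcript of only 793 bases for it.

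**Figure D1:**
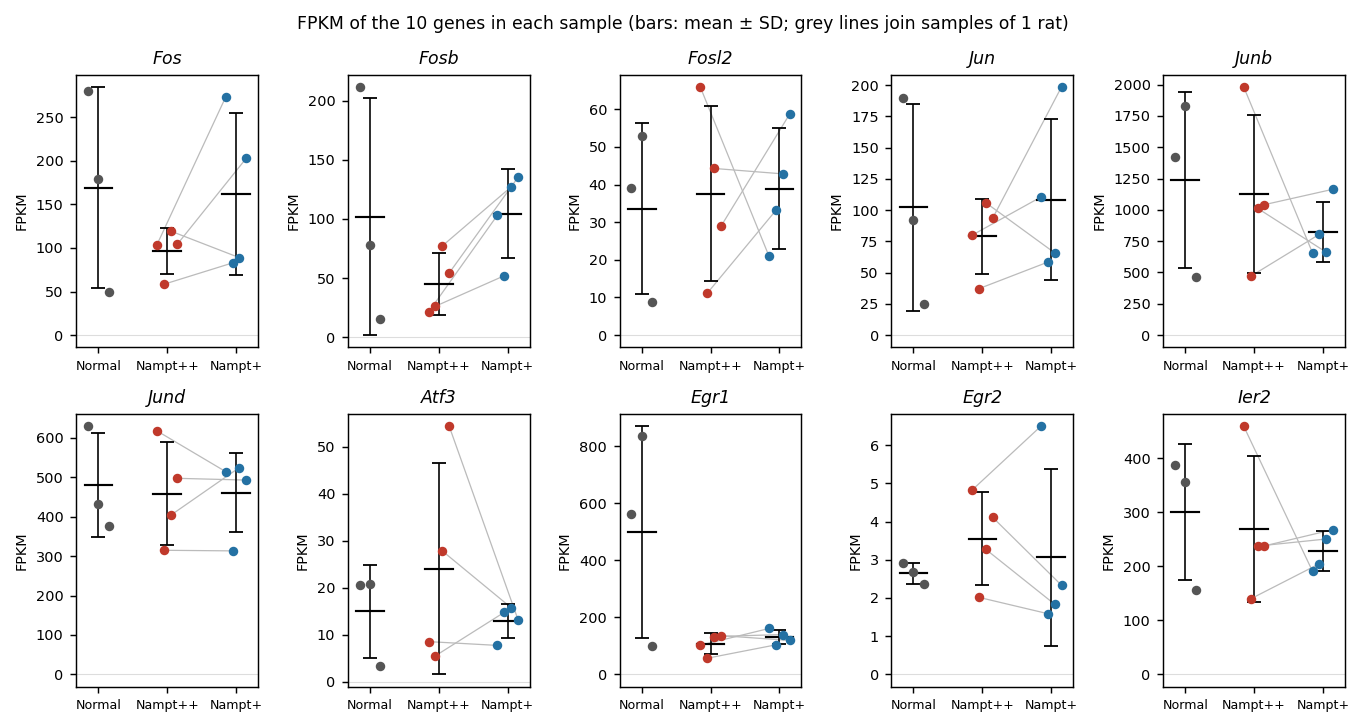
FPKM of each gene (y axis, linear) in the 3 Normal, 4 Nampt++ and 4 Nampt+ samples (x axis); points are samples, bars the mean ± SD, and grey lines join the samples of 1 rat. Egr1 stands at 561 and 834 FPKM in 2 Normal samples and at 161 or less in the other 9, and Fosb rises along all 4 grey lines.

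Of the Fos family, Fos encodes the classical partner of Jun. It stood at 279.7, 179 and 49.2 FPKM in Normal samples 1 to 3, at 103, 58.2, 119 and 104 at Nampt++ status in rats 1 to 4, and at 273, 82.8, 88.8 and 203 in their Nampt+ samples. Normal sample 3 was the lowest of all, Normal sample 1 and the Nampt+ sample of rat 1 were the highest, and the groups overlapped. The group means were 169 ± 116 (SD, n = 3), 96.4 ± 26.5 (SD, n = 4) and 162 ± 92.5 FPKM (SD, n = 4).

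Fosb encodes a second activating partner of Jun, of which a truncated, stable form is also known, and the table listed 2 transcripts under 1 gene. In FPKM it measured 212, 78.3 and 15.6 in Normal samples, 21.2, 26.1, 77.2 and 54.2 in Nampt++ samples, and 103, 51.9, 127 and 135 in Nampt+ samples. The Nampt++ values overlapped the Nampt+ values only through rat 2, whose Nampt+ sample lay below rats 3 and 4 at Nampt++ status, while the Normal values spanned both. The group means were 102 ± 100.1 (SD, n = 3), 44.7 ± 26.1 (SD, n = 4) and 104 ± 37.5 FPKM (SD, n = 4).

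Fosl2 encodes Fra-2, a Fos protein without a strong activation domain. It measured 39.1, 53.0 and 8.69 FPKM in Normal samples, 65.9, 11.1, 44.3 and 28.9 in Nampt++ samples, and 20.9, 33.2, 42.8 and 58.8 in Nampt+ samples. The lowest values belonged to Normal sample 3 and the Nampt++ sample of rat 2, and the 3 groups overlapped throughout.

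Of the Jun family, Jun encodes the strongest activator. It measured 189.7, 92.3 and 25.1 FPKM in Normal samples, 79.9, 37.1, 106 and 93.5 in Nampt++ samples, and 110.4, 58.4, 65.8 and 199 in Nampt+ samples. Normal sample 3 was again lowest, and both the Nampt+ sample of rat 4 and Normal sample 1 were high.

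Junb encodes a Jun protein that can also oppose Jun. Its level was 1420, 1831 and 466 FPKM in Normal samples, 1982, 469, 1013 and 1041 in Nampt++ samples, and 655, 805, 661 and 1165 in Nampt+ samples. The Nampt++ sample of rat 1 was highest, and Normal sample 3 and the Nampt++ sample of rat 2 were lowest and nearly equal. Jund, the Jun gene with the steadiest expression in most cells, ranged only from 313 to 630 FPKM over the 11 samples, a span of 2.01-fold against 13.5-fold for Fosb.

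Atf3, a stress-inducible leucine zipper gene whose product pairs with Jun proteins, measured 20.6, 20.8 and 3.43 FPKM in Normal samples, 8.53, 5.50, 27.8 and 54.4 in Nampt++ samples, and 7.72, 14.8, 15.7 and 13.2 in Nampt+ samples. The Nampt++ sample of rat 4 was the highest, and the 4 Nampt+ samples lay inside the range of the Nampt++ samples.

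Egr1 encodes a zinc finger factor induced together with Fos. It measured 561, 834 and 99.4 FPKM in Normal samples, 102, 56.5, 132 and 136 in Nampt++ samples, and 161, 103, 140.0 and 119 in Nampt+ samples. Normal samples 1 and 2 exceeded every CIA sample, whereas Normal sample 3 lay within the Nampt++ range and below all Nampt+ samples. The group means were 498 ± 371 (SD, n = 3), 107 ± 36.7 (SD, n = 4) and 131 ± 25.0 FPKM (SD, n = 4).

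Egr2, a zinc finger gene best known in T cells and myelinating cells, was the least abundant, at 2.91, 2.67 and 2.37 FPKM in Normal samples, 4.82, 2.02, 3.27 and 4.11 in Nampt++ samples, and 6.50, 1.59, 1.84 and 2.33 in Nampt+ samples. Both samples of rat 1 were highest in their groups. Ier2, an immediate early gene for a nuclear protein with a less defined role, which the table lists as a pseudogene, measured 388, 356 and 157 FPKM in Normal samples, 459, 139.7, 238 and 238 in Nampt++ samples, and 191, 205, 251 and 268 in Nampt+ samples. The Nampt++ sample of rat 1 was highest and that of rat 2 lowest.

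The question of the Nampt+ against Nampt++ comparison was what differs between the statuses in the same rats. The main fits did not use this pairing, and a fit with the rat as a block is given at the end. Fosb rose and was the only 1 of the 10 genes past the thresholds used here, where the mean FPKM of one group is more than 2 times or less than 0.5 of the other's and the unadjusted p is under 0.05. Over all genes 0.642% of 11219 passed these thresholds. The ratio for Fosb was 2.34 and its log2 fold change 1.23 (SE 0.39; edgeR's quasi-likelihood test, Benjamini-Hochberg adjusted p = 0.9996), with a rise in 4 of 4 rats. For Fos the log2 fold change was 0.80 (SE 0.36), with a higher value in 3 of 4 rats. The other 8 ranged from -0.63 for Atf3 to 0.50 for Jun, and the value for Atf3 was -0.01 without the Nampt++ sample of rat 4. By edgeR 0 of the 10 genes reached an adjusted p under 0.05, with 1 at an unadjusted p under 0.05, and DESeq2 gave 0 and 2, limma 0 and 1. The median log2 fold change of the 10 genes was 0.15, against -0.00021 over all genes tested.

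The call for Fosb depended on 2 settings. With all 3 groups in one fit its log2 fold change was 1.23 but its unadjusted p exceeded 0.05, and without the Nampt++ sample of rat 1 the ratio was 1.99 and the log2 fold change 0.98. By exact permutation of log2(FPKM + 1), two-sided, the difference of 1.303 gave p = 0.0857. No gene of the 10 separated the groups in FPKM, against 0.41% of all genes. On CPM, the counts as a share of a library size scaled by TMM, Fosb stood at 75.4 to 308 at Nampt++ status. It stood at 348 to 452 at Nampt+ status, without overlap, as did 1.87% of all genes. Exact permutation gave p = 0.0286, the smallest possible with 4 against 4 samples. Both permutations treated the samples as independent, although each rat gave a sample of each status.

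Within rats, Fosb was 4.87 times as high at Nampt+ as at Nampt++ status in rat 1, 1.99 times in rat 2, 1.65 times in rat 3 and 2.49 times in rat 4. It was the only member that moved the same way in all 4 rats, and exact sign-flip permutation gave p = 0.125, the smallest that 4 rats allow. In FPKM, 1.26% of all genes were higher and 4.94% lower at Nampt+ status in every rat, and in CPM 4.48% were higher and 3.32% lower. Rat 1 and rat 2 went apart for Fosl2, Junb and Ier2. Junb stood at 0.331 times its Nampt++ level in rat 1 and at 1.72 times in rat 2. The same ratios were 0.317 and 2.99 for Fosl2, and 0.415 and 1.47 for Ier2. In FPKM, of the 10 genes 8 were higher at Nampt+ status in rat 2, 6 in rat 4, 5 in rat 1 and 4 in rat 3. These counts depended on the scale, and the shares over all genes by rat were not counted. On log2 CPM Jund (0.59) and Egr2 (0.26) were also higher in rat 2. Egr1 (-0.22) and Ier2 (-0.22) were lower in rat 3 on that scale, but higher there in FPKM.

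**Figure D2:**
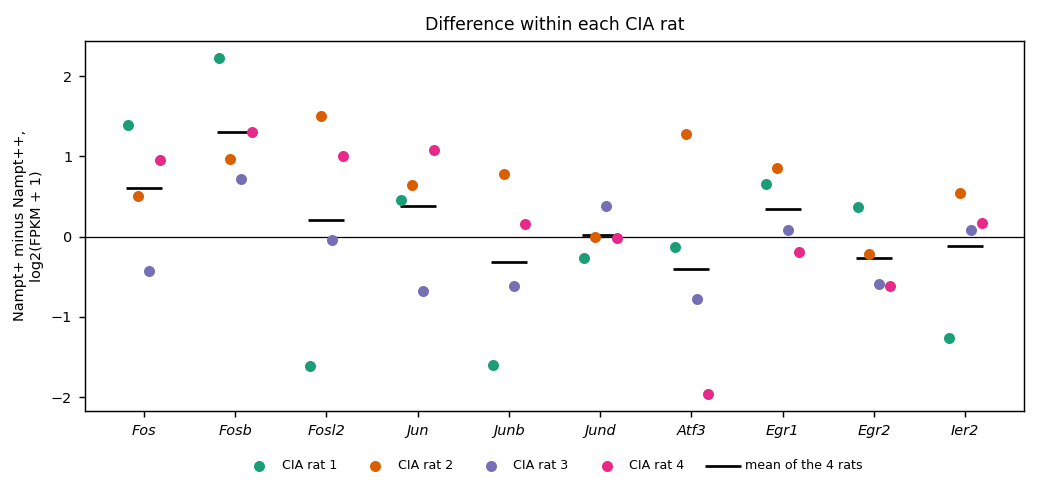
Nampt+ minus Nampt++ value of log2(FPKM + 1) (y axis) for each gene (x axis); coloured points are the 4 CIA rats and black bars their mean. For Fosb all 4 points lie above 0, from 0.71 to 2.23, while every other gene has points on both sides.

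Beside Fosb, some markers of basophils and mast cells also passed the thresholds, in a list chosen with earlier results of these data known. Of 6 tested, 3 passed upward in Nampt+ samples, against 35 of all 11219 genes tested. They were Ms4a2, a chain of the IgE receptor, with a log2 fold change of 1.94, and the mast cell proteases Mcpt8l2 with 1.31 and Mcpt8l3 with 1.41. All 3 had an adjusted p of 0.9996 by edgeR's quasi-likelihood test, and their groups overlapped. Ms4a2 averaged only 0.565 FPKM at Nampt++ status. The 7 markers found had a summed level of 16.5 to 55.0 FPKM at Nampt++ status and of 17.2 to 188 at Nampt+ status, none being at 0 throughout a group. The part of these markers in the Fosb result was not tested. In bulk WBC RNA, fewer cells of a type and less RNA per cell cannot be told apart.

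The comparisons with healthy rats asked what sets CIA rats at each status apart, and both use the same 3 Normal samples. In Nampt++ against Normal samples Egr1 fell and was the only 1 of the 10 genes past the thresholds, against 0.686% of all 11219 genes tested. Its log2 fold change was -2.47 (SE 0.72) and the ratio of means 0.214 (edgeR's quasi-likelihood test, adjusted p = 0.9999), with 4 of 4 Nampt++ samples below the Normal mean. Normal sample 3, at 99.4 FPKM, also lay below that mean of 498 FPKM. The log2 fold change was -1.31 (SE 0.82) for Fosb and -0.97 (SE 0.57) for Fos, neither past the thresholds. Of the 10 genes 8 had a negative and 2, Egr2 and Atf3, a positive log2 fold change, with a median of -0.35 against 0.0018 over all genes. None of the 10 separated the groups, against 1.1% of all genes.

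Single Normal samples weighed on this comparison. Without Normal sample 3, 3 genes passed in place of 1, with log2 fold changes of -2.99 for Egr1, -1.84 for Fosb and -1.45 for Fos. Without Normal sample 1, the highest for Fosb and Fos, the values were -0.36 for Fosb and -0.52 for Fos, neither past the thresholds, and -2.48 for Egr1, which still passed. Without Normal sample 2, Egr1 still passed with a log2 fold change of -1.64. By exact permutation of log2(FPKM + 1), two-sided, the difference of -1.82 for Egr1 gave p = 0.143.

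In Nampt+ against Normal samples Egr1 was again the only 1 of the 10 genes past the thresholds, against 0.497% of 11269 genes. Its log2 fold change was -2.06 (SE 0.70) and the ratio 0.262 (edgeR's quasi-likelihood test, adjusted p = 1), with 4 of 4 Nampt+ samples below the Normal mean. Normal sample 3 also lay below that mean. Without Normal sample 2, the highest for Egr1, the log2 fold change was -1.22 and Egr1 no longer passed. The remaining 9 genes lay between -0.64 for Junb and 0.18 for Egr2, and Fosb stood at -0.09 (SE 0.72). Exact permutation gave p = 0.171 for the Egr1 difference of -1.48. None of the 10 separated the groups, against 0.444% of all genes. In both comparisons with Normal samples edgeR gave 0 of the 10 genes an adjusted p under 0.05 and 1 an unadjusted p under 0.05, as did DESeq2 and limma.

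**Figure D3:**
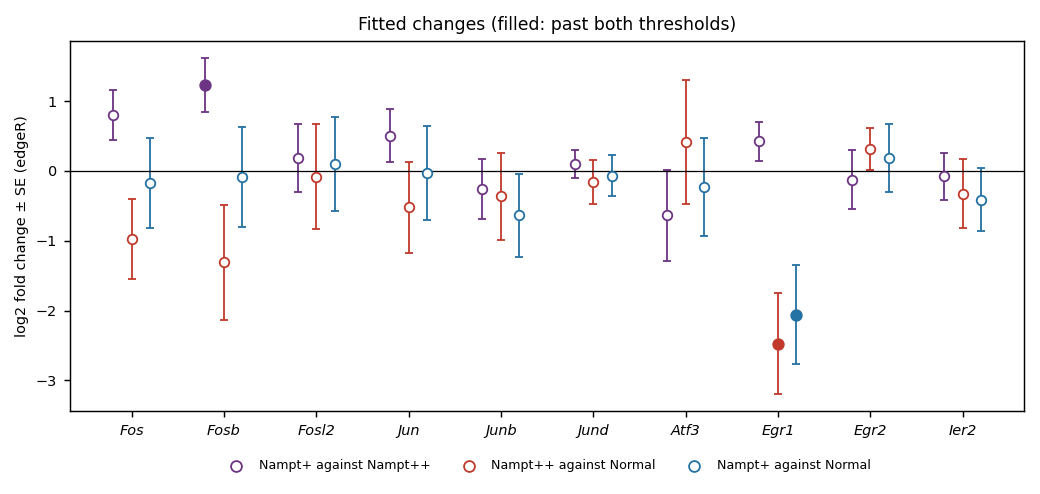
Fitted log2 fold change ± SE from edgeR (y axis) for each gene (x axis) in the 3 comparisons; filled points passed both thresholds. Only Fosb in Nampt+ against Nampt++ samples (1.23) and Egr1 in both comparisons with Normal samples (-2.47 and -2.06) are filled.

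Ratios between genes of one sample do not depend on its depth or its haemoglobin share, and they were looked at after the values were seen, so they are given without a test. Fos stood at 0.215 to 0.498 times the level of Egr1 in Normal samples, at 0.769 to 1.03 times at Nampt++ status and at 0.636 to 1.71 times at Nampt+ status. Normal sample 3, low in both genes, thus lay with the other Normal samples and below every CIA sample. Of the 9 ratios with Egr1, 7 did not overlap between Nampt++ and Normal samples and 5 between Nampt+ and Normal samples. Over all 45 ratios among the 10 genes these counts were 8 and 6, and 1 between Nampt+ and Nampt++ samples. The 9 ratios share Egr1 and so are not separate results. Egr1 itself overlapped between the groups in FPKM, and ratios of genes outside the 10 were not counted.

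Among the Fos and Jun genes, Junb made up 39.1% to 69.0% of the summed FPKM of the 6 genes in every sample and Jund 16.2% to 40.1%. The 3 Fos genes together made up 7.81% to 19.2% in healthy rats, 6.64% to 13.7% at Nampt++ status and 12.5% to 23.7% at Nampt+ status. Fosb alone accounted for 0.738% to 4.38% at Nampt++ status and 3.86% to 8.42% in Nampt+ samples, and these ranges overlapped only between 3.86% and 4.38%.

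The 10 genes varied widely between samples of the same group. Among Normal samples 8 of the 10 had a standard deviation of log2(FPKM + 1) above the 75th percentile of all 11242 genes, among Nampt++ samples 7 and among Nampt+ samples 3. The SD of Fosb in Normal samples was 1.85 and that of Egr1 1.63, where the median gene had 0.438. Egr1 was steady in Nampt+ samples with 0.275, below the median gene at 0.505, and so was Ier2 with 0.232. Egr2 had the steadiest Normal values, with an SD of 0.108.

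A few samples set this spread. Normal sample 3 was the lowest of 11 for 6 of the 10 genes, and it and the Nampt++ sample of rat 2 were each among the lowest 2 for 8 genes. Normal sample 1 was among the highest 2 for 6 genes and the Nampt++ sample of rat 1 for 5. With haemoglobin genes left out of the scale, Normal sample 3 was lowest for 8 genes. Haemoglobin genes took 6.84% to 42.8% of the counts, with 16.2% in Normal sample 3 and 37.3% in the Nampt++ sample of rat 2.

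**Figure D4:**
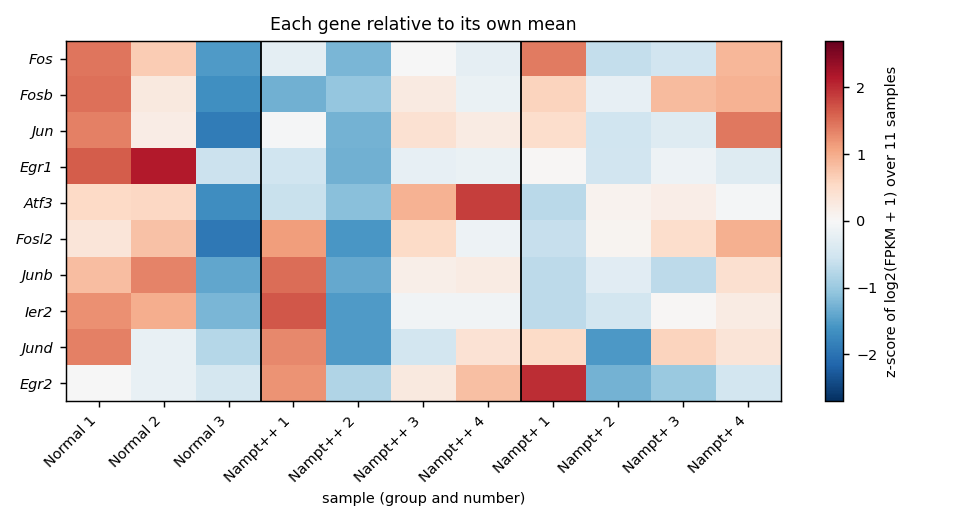
z-scores of log2(FPKM + 1) over the 11 samples (colour) for each gene (rows) and sample (columns, groups parted by lines). Blue columns mark Normal sample 3 and the Nampt++ sample of rat 2, and the mean z-scores of these are -1.31 and -1.28.

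Likeness between the genes was described by Pearson's r over the 11 samples, which come from 7 rats and share their scaling. Junb and Ier2 were most alike with r = 0.94 (Spearman's rho 0.93), then Fos and Jun with r = 0.90 (rho 0.95), Fosl2 and Junb with 0.85 (rho 0.84) and Fosl2 and Ier2 with 0.85 (rho 0.84). Fosb and Jun reached 0.81 and Fos and Fosb 0.79. Over 1 mean per rat, n = 7, Junb and Ier2 gave 0.96 and Fos and Jun 0.94. Egr2 and Fosb were least alike, with 0.0068, and no pair of the 45 was negative.

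Neutrophil markers moved with some of these genes, and so did monocyte markers. Of the 11 markers, 10 had reads in every sample, and their summed level spanned 2175 to 14767 FPKM in the Normal group, 3060 to 41619 in the Nampt++ group and 3955 to 16388 in the Nampt+ group. The lowest sums belonged to Normal sample 3 and the Nampt++ sample of rat 2, and the highest to the Nampt++ sample of rat 1. On log scales over the 11 samples, r with this sum was 0.87 for Fosl2, 0.85 for Junb and 0.76 for Ier2, against 0.27 for Fos, 0.11 for Fosb and 0.19 for Egr1. With the summed monocyte markers r was 0.80 for Fosl2, 0.65 for Junb and 0.52 for Ier2. With the summed B cell markers it was -0.65, -0.61 and -0.44 in the same order. Fosb had its highest r among the cell markers, 0.70, with those of basophils and mast cells. None of 10 neutrophil markers tested passed the thresholds in any comparison by edgeR, DESeq2 or limma, with 0 at an unadjusted p under 0.05 by edgeR. The part of these cell types in the levels was not tested.

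**Figure D5:**
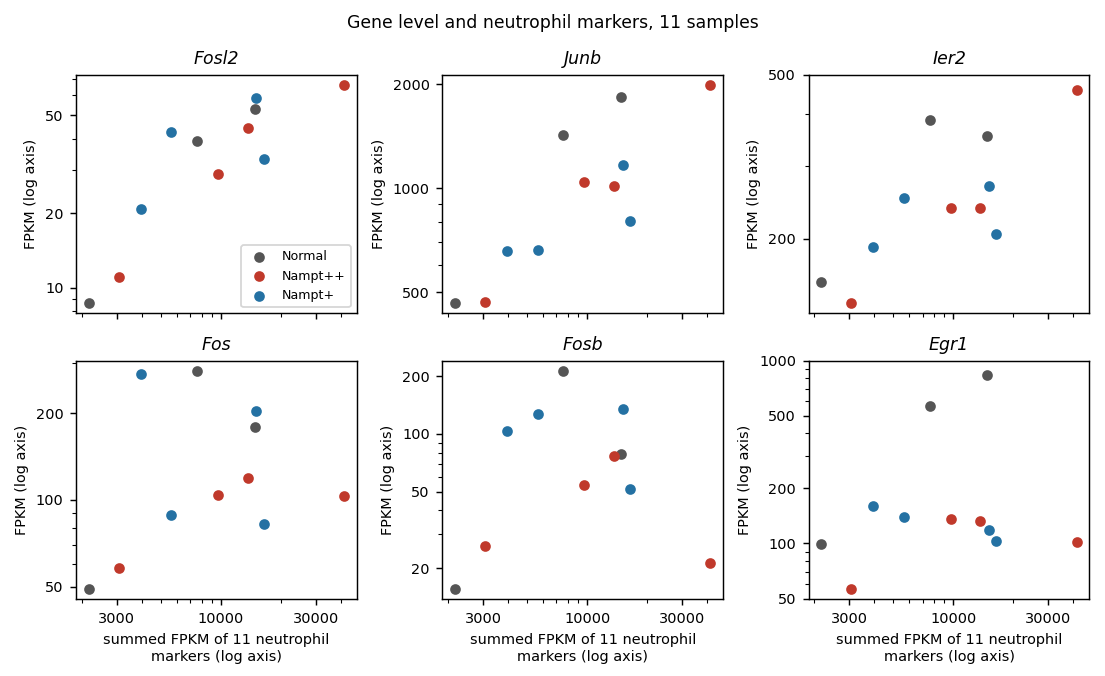
FPKM of 6 of the genes (y axis, log) against the summed FPKM of 11 neutrophil markers (x axis, log) in the 11 samples, coloured by group. Fosl2, Junb and Ier2 (upper row) climb with the sum, with r = 0.87, 0.85 and 0.76, while Fos, Fosb and Egr1 (lower row) do so less, with r = 0.27, 0.11 and 0.19.

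Other cell markers past the thresholds were few. Gzma, a granzyme of NK and T cells, had a log2 fold change of -1.68 in Nampt+ against Normal samples, as the only one of 7 NK cell markers. Ppbp, a platelet chemokine, had -1.09 in Nampt++ against Normal samples, as the only one of 8 platelet markers, and of 11 erythroid genes only Hba-a3 passed, with 3.46 in Nampt+ against Normal samples. Mcpt8l2 had -1.20 in Nampt++ against Normal samples. Of the tested markers of monocytes (8), T cells (9), B cells (7) and leukocytes (5) none passed by edgeR in any comparison, with 1 T cell marker, Cd5, at an unadjusted p under 0.05 in Nampt+ against Nampt++ samples (log2 fold change 0.71). Limma called none of these. Their part in the Egr1 result was not tested.

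The relatives of the 10 genes seldom passed a test. Of 21 other AP-1 genes tested, such as Batf, Atf4 and Cebpb, 0 passed in any comparison by edgeR, and 0 had an unadjusted p under 0.05. In Nampt+ against Nampt++ samples limma called 1, Batf3, a dendritic cell factor, with a log2 fold change of -0.80. The median log2 fold changes of the 21 were -0.10 in Nampt+ against Nampt++, 0.25 in Nampt++ against Normal and -0.01 in Nampt+ against Normal samples. Crem, a CREB relative, was higher in FPKM in each Nampt++ than in each Normal sample with a log2 fold change of 0.43, without passing the thresholds. It was the only 1 of the 21 without overlap there, against 1.1% of all genes. The gap was narrow, with 26.54 FPKM in the Nampt++ sample of rat 2 against 25.96 in Normal sample 2. Haemoglobin genes took 30.9% of the counts of Normal sample 2 and 6.84% to 37.3% in Nampt++ samples. Whether Crem stays without overlap when haemoglobin genes are left out was not tested. Of the 3 Egr relatives tested, Egr3, Nab1 and Nab2, the last pair being corepressors of Egr proteins, 0 passed by any of the 3 tools, with 0 at an unadjusted p under 0.05 by edgeR.

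Of 26 other immediate early genes tested, 0 passed in any comparison by edgeR, DESeq2 or limma, and their median log2 fold changes were -0.03, -0.02 and -0.11 in the same order of comparisons. By edgeR 2 had an unadjusted p under 0.05 in Nampt+ against Nampt++ samples, namely Dusp6, a phosphatase that inactivates ERK, with -0.72 and a ratio of 0.585, and the clock gene Per1 with 0.59 and a ratio of 1.52. In Nampt++ against Normal samples 1 did, Dusp6 again, with 0.78 and a ratio of 1.82. Ier5l was lower in each Nampt+ than in each Normal sample with -0.58, likewise without passing. It was the only 1 of the 26 without overlap there, against 0.444% of all genes. Its level was at most 2.37 FPKM in Nampt+ samples and at least 2.48 in Normal samples. The 28 genes of this list that were found summed to 2666 FPKM in Normal sample 3 and 2612 in the Nampt++ sample of rat 2, the lowest sums, and to 9263 in the Nampt++ sample of rat 1, the highest. Of 30 genes of the MAPK and serum response factor pathway and 8 heat shock genes, 0 passed in any comparison by these 3 tools, with 0 at an unadjusted p under 0.05 by edgeR.

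Genes outside the 10 whose levels followed their mean z-score closely, among 4921 with a mean of at least 10 FPKM, included Ptgs2 with r = 0.91, Fgl2 with 0.89, AC134224 with 0.88, Gbp6 with 0.87, Zfp36 with 0.86, Slfn4 with 0.84 and Arrdc3 with 0.81 (Pearson's r over 11 samples). Ptgs2 encodes cyclooxygenase-2 and ranged from 8.32 to 94.7 FPKM. Zfp36 encodes a protein that speeds the decay of short-lived mRNAs and ranged from 209.6 to 1219 FPKM, and it is on the list of other immediate early genes.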

How the data were processed

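Poly(A) RNA of WBCs was sequenced in paired-end reads. The deposited counts are whole numbers of reads per gene without normalization, and the FPKM values were scaled by the authors for gene length and sample total; an FPKM of 0.0001 was read as 0. The labels name cutadapt 1.9, HISAT2 2.0.4 and StringTie 1.3.4, while the build, the counting of shared reads and the time from bleeding to lysis were not given in the sources used here. Total counts were 65340027 to 85819418 per sample, so the number of rats limits the precision more than counting does.

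Genes with a mean of at least 1 FPKM over the samples compared were fitted with edgeR 4.0.16 (quasi-likelihood, TMM) in R 4.3.3, all genes together, with Benjamini-Hochberg adjustment. Calls followed the thresholds of the study. Single genes were tested by exact permutation of log2(FPKM + 1) in SciPy 1.17.1, and within rats by sign flips. DESeq2 1.42.0, limma 3.58.1 (pseudocounts 1 and 0.1), upper quartile scaling, other filters (none, or 10 FPKM), haemoglobin genes left out, one fit of all groups, a replicate block and leaving out each sample were alternatives. The fits were tested on simulated data. All 10 genes, the list genes past thresholds with a mean of at least 10 FPKM (basophil genes below that are named after their values were seen), and the 8 most similar genes were to be named; other named genes were chosen after their values were seen. Some results that these rules would name are not reported here. Members and lists were chosen with earlier results of these data known.

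Nampt++ and Nampt+ samples of 1 number came from 1 rat, by design; over genes, these pairs departed from their groups' means with correlations of -0.27, -0.24, 0.23 and 0.09 for rats 1 to 4. Promoters were matched by symbol to RefSeq sequences of GRCr8.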

Additional observations from a re-analysis of the deposited data

Results flagged for a closer look

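In the groups of 4 samples, 20 sets of values (10 genes in 2 groups) were searched for a single sample far from the other 3, and 2 were set apart, where chance sets apart about 1 in 20. Jund stood at 313 FPKM in the Nampt+ sample of rat 2, against 493 to 525 in the other 3 Nampt+ samples. Haemoglobin genes took 42.8% of the counts of that sample, the highest share of all. With haemoglobin genes left out of the scale, Jund stood at 547 there, close to the 579 to 694 of the other 3. Egr2 stood at 6.5 FPKM in the Nampt+ sample of rat 1, against 1.59 to 2.33 in the other 3. With haemoglobin genes left out it stood at 8.76, against 2.25 to 2.78. The Normal group, with 3 samples, was not searched in this way.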

How the results depend on the processing

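Of 656 values recomputed under alternatives, 581 kept their direction and side of the thresholds. The number of members past the thresholds moved from 1 to 0 with all groups in one fit in Nampt+ against Nampt++ samples. Leaving out each sample gave 0 to 1 members in that comparison, 1 to 3 in Nampt++ against Normal and 0 to 1 in Nampt+ against Normal samples. When 1 rat was omitted, 2 to 4 members moved the same way in the rats left, against 1. Fewer rats have to agree then, so such counts are reached more easily, and the share over all genes was not counted. By exact permutation without the pairing of rats, 1 member, Fosb, passed on log2 CPM in Nampt+ against Nampt++ samples, against 0. Without 1 sample, 0 passed in each comparison, but some of these splits are too small to pass. Of the 8 most similar genes, 5 stayed with deviations from group means. The cause of these shifts was not tested.

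With the rat as a replicate block, Fosb kept its call with a log2 fold change of 1.42, and the block changed no other call between the CIA groups. Normal and CIA samples share only a number (correlations of deviations -0.56 to 0.54); with that replicate block 0 members passed in either comparison with Normal samples, Egr1 being at -2.09 and -1.36, and Fosl2 turned to 0.39 and Atf3 to -0.39 in Nampt++ against Normal samples, and Fos to 0.037, Fosb to 0.47, Jun to 0.10, Jund to 0.045 and Atf3 to 0.19 in Nampt+ against Normal samples.

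Other reversals, all of genes not past the thresholds, were as follows. By limma with pseudocounts of 1 and 0.1, Fosl2 turned to 0.23 and 0.24 in Nampt++ against Normal samples, and in Nampt+ against Normal samples Fos to 0.071 and 0.073, Fosb to 0.60 and 0.62, Jun to 0.32 and 0.33 and Atf3 to 0.073 and 0.12, while Egr2 turned to -0.025 with 0.1. Leaving out each sample, log2 fold changes spanned 0 in Nampt+ against Nampt++ samples for Fosl2 (-0.091 to 0.56), Junb (-0.56 to 0.12), Egr2 (-0.70 to 0.084) and Ier2 (-0.31 to 0.27), in Nampt++ against Normal samples for Fosl2 (-0.58 to 0.64), Jun (-1.02 to 0.14), Junb (-0.82 to 0.26), Jund (-0.43 to 0.057), Atf3 (-0.22 to 0.93) and Ier2 (-0.72 to 0.0056), and in Nampt+ against Normal samples for Fos (-0.65 to 0.27), Fosb (-0.62 to 0.85), Fosl2 (-0.40 to 0.83), Jun (-0.53 to 0.63), Jund (-0.33 to 0.14), Atf3 (-0.73 to 0.30) and Egr2 (-0.40 to 0.40). Differences of log2(FPKM + 1) spanned 0 for Fosb (-1.69 to 0.14) in Nampt++ against Normal samples and for Fos (-0.65 to 0.59) and Fosb (-0.39 to 1.45) in Nampt+ against Normal samples.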
